A study of Mus musculus with 24 samples.

Results

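The effect of losing the transcription factor gene Tal1 that 4 sorted bone marrow populations had in common was read from all 24 of the 24 RNA sequencing libraries of the series, 12 labelled KO and 12 labelled Ctrl. The populations were mouse Lin-negative, Sca1-positive, Kit-positive (LSK) cells, divided by CD135 (the receptor Flt3) into CD135-negative cells, called HSC (haematopoietic stem cells) in the titles, and CD135-positive cells, called LMPP (lymphoid-primed multipotent progenitors). Each was divided again by a green fluorescent reporter of Rag2, giving GFP-negative and GFP-positive HSC and GFP-negative and GFP-positive LMPP with 3 Ctrl and 3 KO libraries each. Every animal carried homozygous floxed Tal1 alleles and the Rag2 reporter. Ctrl animals are called wild type in the labels, although their Tal1 alleles are floxed, and no Cre is named for them. KO animals also carried VaviCre, a recombinase under the Vav promoter, which is active across the whole blood system and so not only in the cells sorted. Age and treatment are not given in the labels.

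The sample descriptions hold 6 numbers, each shared by 4 libraries of one genotype, 1 from each population: 262, 264 and 269 for Ctrl (replicates 1, 2 and 3) and 263, 265 and 270 for KO. Nothing in the labels says that a number is an animal, so the spread between these numbers may be partly technical. The question was which genes differed between KO and Ctrl in one direction in all 4 populations. One limma fit, called the gate-block fit, used all 24 libraries with one genotype term and the population as a block. Because libraries of one number are not independent, a second fit, the number-mean fit, used 1 value for each number, the mean over its 4 populations, and so compared 3 with 3. P-values and SEs of the number-mean fit start from the spread between numbers. For each gene limma drew that spread towards the trend of all genes, with 4 residual against 11.5 prior degrees of freedom. They therefore rest more on spread borrowed from other genes than on that of the gene itself. P-values of the gate-block fit start from the spread between libraries, drawn in the same way, with the 4 of a number treated as separate. A gene is called shared, and is said to rise or fall, where its Benjamini-Hochberg adjusted p was under 0.05 in both fits and the KO minus Ctrl difference had one sign in all 4 populations. Differences are on the scale log2(normalised count + 4.1), which understates changes of genes near 0.

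TAL1 is a basic helix-loop-helix protein that binds E-box DNA as a partner of E proteins such as TCF3, in a complex that also holds GATA factors, LMO2 and LDB1. It is needed for blood formation in the embryo, and in adults it is best known for the red cell, megakaryocyte and mast cell lineages. Its paralogue LYL1 shares part of its function in stem cells.

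Library totals ran from 6906083 to 11969093 normalised counts, and depth in reads is unknown. Ctrl HSC GFP-positive replicate 2 and KO LMPP GFP-positive replicate 3 had 11982 and 11684 genes above 1, against 13583 to 15957 in the other 22. For several genes with extreme values in these 2 libraries of low detection, the difference is given with and without them. Some libraries, these included, list no gene at 0, and several genes share nearly one small value in them. That value was about 0.5 in KO LMPP GFP-positive replicate 3 and 0.032 in Ctrl HSC GFP-positive replicate 2. Such floor values are not read as levels. Mitochondrial ribosomal RNA took 17.4 to 28.9% of the total in Ctrl and 16.9 to 35.9% in KO libraries. Flt3 followed the CD135 gate, at 597 to 1033 in Ctrl HSC GFP-negative libraries and 4472 to 4813 in Ctrl LMPP GFP-negative libraries. Of 4 stem cell markers, Slamf1 followed the names of the gates, at 105 to 136 in the former and 16.9 to 43.3 in the latter. Hlf did not, at 3217 to 5134 and 5811 to 7215, and Mecom and Procr had higher means in the latter (623 against 478 and 181 against 135) with ranges that overlapped. The names HSC and LMPP are therefore used here for the CD135 gates alone.

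Of 16215 genes kept, 16 were called shared (0.0987%), 9 higher (0.0555%) and 7 lower (0.0432%) in KO. The rises were genes of the mature red cell (Hbb-bs, Hbb-bt, Hba-a1, Hba-a2 and Slc4a1), 2 granule proteases (Gzmb and Mcpt4), Tent5c and Sva. The falls were Tal1 itself, genes of the granulocyte lineage (Mpo and Ctsg), Gm11505, Il1r1, Emb and Myof. Gm11505 and Sva fall outside the rule for named genes and were named after their values were seen. The gate-block fit alone passed 58 genes (0.358%), 32 higher (0.197%) and 26 lower (0.16%) in KO, and 56 of them had one sign in all 4 populations, a sign agreement that 13.9% of all genes had. The fit itself favours genes of one sign, so this agreement is partly built in. The number-mean fit alone passed 18 genes (0.111%), 11 higher (0.0678%) and 7 lower (0.0432%), and all but 1 of them passed the gate-block fit too. In bulk RNA, a change in the number of cells of a type and a change in RNA per cell cannot be told apart, and this holds for every gene below.

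**Figure D1:**
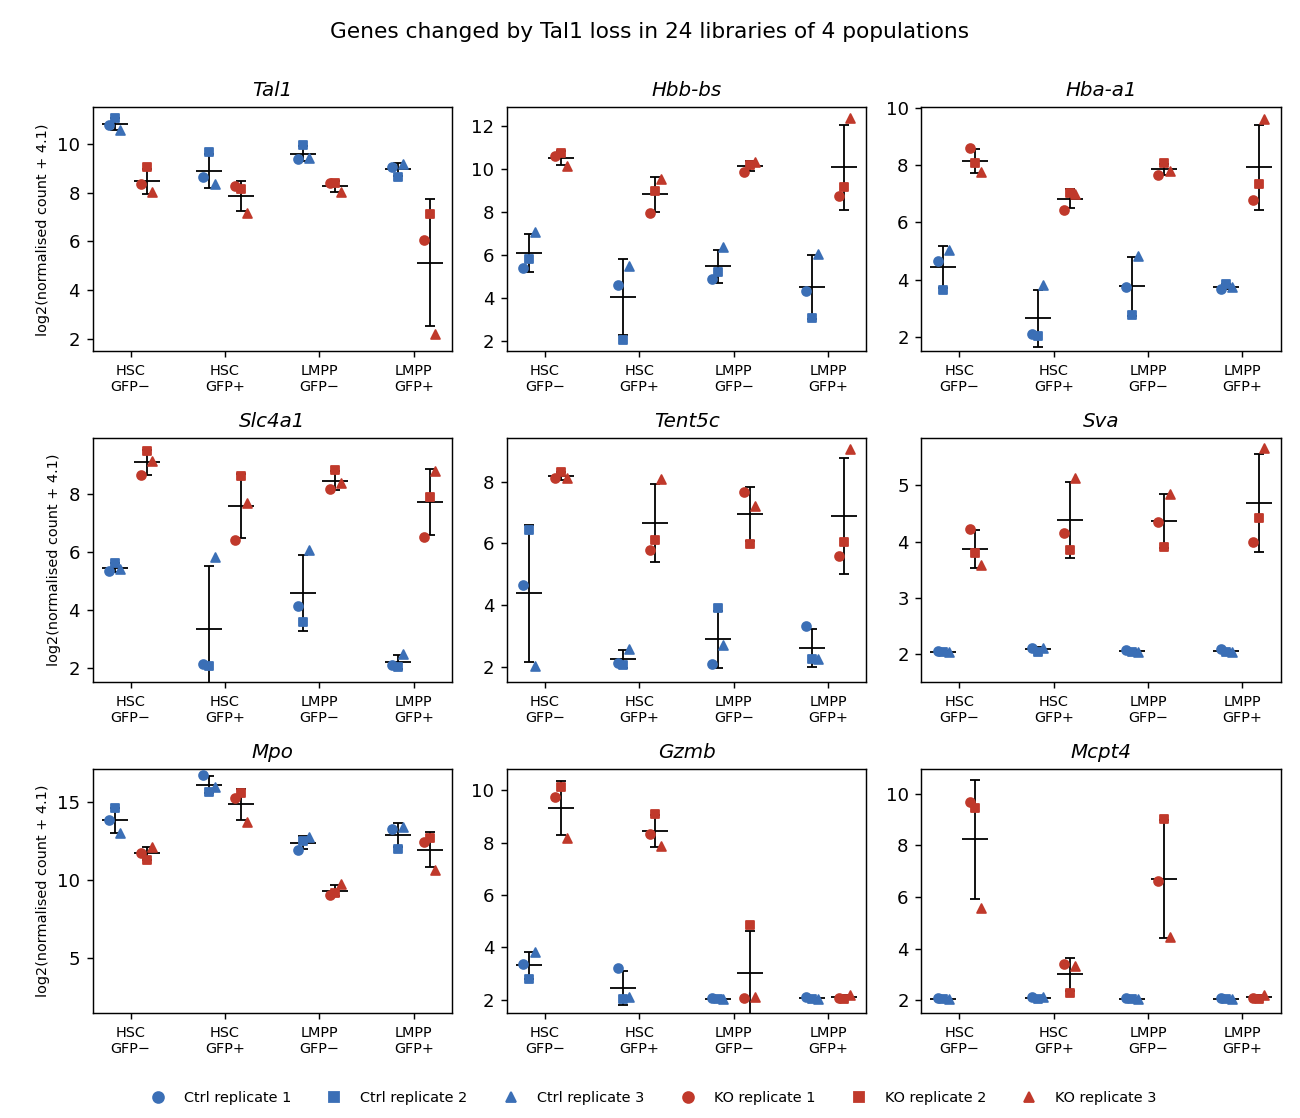
Normalised level of 9 shared genes in each of 24 libraries, on a log2(normalised count + 4.1) axis, by population. Points are libraries, with 1 marker shape for each replicate, and black lines are means ± SD (n = 3). Hbb-bs, Hba-a1, Slc4a1, Tent5c, Sva and Tal1 separate the genotypes in all 4 populations, and Gzmb does so in 2.

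As a check of the labels, the targeted gene comes first. Tal1 (ENSMUSG00000028717, GRCm38/mm10 chr4:115056426-115071755, plus strand) ranged from 326 to 2109 normalised counts in the 12 Ctrl libraries, with a median of 676. In KO it ranged from 0.499 to 518, with a median of 267. The ranges overlap across populations, but within each population every KO library was below every Ctrl library. Averaged over populations, the Ctrl numbers stood at 831, 1076 and 777 and the KO numbers at 255, 318 and 162. Tal1 fell by 2.12 ± 0.36 (SE) on the log2 scale (adjusted p = 0.025 in the number-mean fit and 0.0081 in the gate-block fit). An exact two-sided permutation test over the 6 numbers gave p = 0.1, the smallest that 3 against 3 allows. The lowest value, 0.499, came from the low-detection library KO LMPP GFP-positive replicate 3, and without the 2 libraries of low detection the difference was -1.75 (number-mean adjusted p = 0.000512). Over all 21 alternatives the adjusted p ran from 0.000512 to 0.338. Leaving out any one Ctrl number ended the call, with adjusted p up to 0.284, while leaving out any one KO number kept it. The labels do not say which exons are floxed, so the signal left in KO does not measure how complete the deletion was.

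Of the genes whose proteins work with TAL1, none but Tal1 was called shared. In a list of 26 measured members of the TAL1 complex, the E proteins and the Id proteins, the median difference was -0.03, against 0.03 over all genes. Lyl1, the paralogue, differed by -0.37 ± 0.17 (SE, adjusted p = 0.88) and had different signs in the HSC and LMPP gates. The DNA-binding partners Gata1 and Gata2 differed by 0.90 ± 0.47 and 1.55 ± 0.48 (adjusted p = 0.914 and 0.533), both with a negative difference in LMPP GFP-positive cells. For Gata1 that sign rests on Ctrl replicate 3, at 9.22, with every other library there at 1.45 or less. For Gata2 that sign rests on the low-detection KO replicate 3, at 0.5: the other KO libraries there held 192 and 212, above the Ctrl libraries at 40.2, 73.4 and 90.1. Without the 2 libraries of low detection Gata2 passed the number-mean fit (1.38, adjusted p = 0.0185, with 0.0185 to 1.0 over the alternatives). The bridging proteins Lmo2 and Ldb1 and the E protein gene Tcf3 differed by -0.03, -0.03 and -0.11.

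Cbfa2t3 encodes the corepressor ETO2 of the same complex. It was lower in every KO library than in every Ctrl library of its population, with a Ctrl range of 713 to 2462 (median 1194) and a KO range of 244 to 795 (median 566). Its difference of -1.05 ± 0.20 (SE) passed the gate-block fit (adjusted p = 0.00115) but not the number-mean fit (0.061). It ran from -0.83 to -1.38 over the populations. Without the 2 libraries of low detection it passed both (-0.87, number-mean adjusted p = 0.0195). Over the alternatives the adjusted p ran from 0.00211 to 0.457. The 0.00211 is not from a number-mean fit. It came from a fit of all 24 libraries with those of a number treated as correlated. Cbfa2t3 was chosen for mention after its values were seen, as were the other genes described below that passed one fit only.

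Genes of the mature red cell gave 5 of the 9 rises, among them the 3 largest, Hbb-bs, Slc4a1 and Hba-a2. Haemoglobin is built from alpha and beta globin chains, and both adult beta globin genes and both adult alpha globin genes were called. Hbb-bs (chr7:103826534-103828096, minus strand) ranged from 0.0324 to 128 normalised counts in Ctrl, with a median of 35.1, and from 238 to 5165 in KO, with a median of 1017. No KO library overlapped any Ctrl library, whichever the population. Its difference was 4.85 ± 0.46 (SE, number-mean adjusted p = 0.000153), and it was 4.44 without the 2 libraries of low detection, one of which held the highest value. The Ctrl numbers averaged 24.5, 22.4 and 76.7 and the KO numbers 775, 975 and 2069.

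Hbb-bt, the neighbouring beta globin gene, ranged from 14.5 to 242 in Ctrl (median 25.9) and from 95.8 to 1772 in KO (median 562). Its libraries overlapped in HSC GFP-positive cells, the population of its smallest difference (2.10), and were apart in the other 3. The overlap came from the low-detection library Ctrl HSC GFP-positive replicate 2, at 242, while the other Ctrl libraries there held 16.6 and 24.2. Its difference over all populations was 3.60 ± 0.38 (SE, adjusted p = 0.0004), and 3.71 without the 2 libraries of low detection. Hba-a1 ranged from 0.032 to 28.9 in Ctrl and from 83.1 to 781 in KO, and Hba-a2 from 0.0321 to 25 and from 62.9 to 1702. Neither alpha globin gene had any overlap between the genotypes over the 24 libraries, and they differed by 4.02 ± 0.45 and 4.22 ± 0.46 (SE, adjusted p = 0.0004 each). Without the 2 libraries of low detection, one of which held both highest values, the differences were 3.81 and 3.80. The 2 alpha globin genes are near copies of each other, and so are parts of the 2 beta globin genes, so the split of reads between copies is uncertain.

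The likeness of the alpha globin copies reaches into their promoters. The 250 bases before the start sites of Hba-a1 (chr11:32283422-32283671, plus strand) and Hba-a2 (chr11:32296242-32296491, plus strand) are shown to make this visible, from RefSeq on GRCm38.p6, 5′ to 3′. Set against each other at an offset of 3 bases, they were identical at 247 of 247 positions. The same stretch of Hbb-bs (chr7:103827929-103828178, minus strand) was identical to that of Hbb-bt at 127 of 249 positions (51%). Capitals mark the letters AGATAA, a sequence that GATA factors can bind, which Hbb-bs holds at position -210 from the start site. The variant TGATAA, which both alpha globin windows hold, was not searched and is left in lower case.
Hba-a1: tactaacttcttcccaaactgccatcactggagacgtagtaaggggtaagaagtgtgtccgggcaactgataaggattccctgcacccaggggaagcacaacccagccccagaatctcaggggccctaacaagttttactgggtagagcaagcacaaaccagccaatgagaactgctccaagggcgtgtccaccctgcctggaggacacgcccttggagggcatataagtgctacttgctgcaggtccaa
Hba-a2: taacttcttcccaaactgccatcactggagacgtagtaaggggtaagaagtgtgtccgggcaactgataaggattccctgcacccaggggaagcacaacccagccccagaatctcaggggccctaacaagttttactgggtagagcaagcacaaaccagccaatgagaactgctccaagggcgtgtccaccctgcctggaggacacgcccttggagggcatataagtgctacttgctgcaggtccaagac
Hbb-bs: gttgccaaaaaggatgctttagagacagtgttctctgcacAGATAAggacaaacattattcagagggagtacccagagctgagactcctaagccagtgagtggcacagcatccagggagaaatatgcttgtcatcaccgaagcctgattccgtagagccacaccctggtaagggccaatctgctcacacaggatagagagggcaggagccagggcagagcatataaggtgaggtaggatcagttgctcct

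Slc4a1 (chr11:102348824-102366203, minus strand) encodes band 3, the anion exchanger of the red cell membrane. It ranged from 0 to 62.8 in Ctrl (median 10.6) and from 81.9 to 716 in KO (median 359), with no overlap in any population. It rose by 4.32 ± 0.49 (SE, adjusted p = 0.000516). Sptb and Epb42, other genes of the red cell membrane skeleton, passed the gate-block fit only. Sptb, for beta spectrin, differed by 2.25 (gate-block adjusted p = 0.0279, number-mean 0.175). Epb42, for protein 4.2, differed by 1.69 (0.0279 and 0.173). Alas2, for the first enzyme of haem synthesis in red cells, ranged from 0.0317 to 73.4 in Ctrl and from 36.6 to 279 in KO. It differed by 2.17 ± 0.54 (SE), with 0.011 in the gate-block fit and 0.251 in the number-mean fit.

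Among 29 measured members of the erythroid list, 5 rose and none fell, and 9 were higher and none lower in the gate-block fit. A positive difference in all 4 populations was found for 12 of the 29 (41.4%, against 7.6% of all genes), and the median difference was 0.88 against 0.03. Not all members leaned this way. The mean difference was negative for 6 of the 29, among them Add2 (-0.56) and Icam4 (-0.49), and that of Icam4 was negative in all 4 populations. Ank1 (1.80) passed neither fit (gate-block adjusted p = 0.24) and was negative in HSC GFP-negative cells (-0.51). The members that rose are products of late red cell development. The early erythroid regulators Klf1 and Gata1 and the erythropoietin receptor gene Epor differed by 0.23, 0.90 and 0.42, with adjusted p of 0.914 or more. Of 21 measured genes of haem synthesis and iron handling other than Alas2, none passed either limma fit, 1 had an unadjusted p under 0.05 and the median difference was 0.14. Of these genes, Hbb-bs, Hba-a1, Slc4a1 and Alas2 are also the 4 markers fixed for mature red cells, and their summed level was 0.0107 to 34.7 ppm of the library in Ctrl and 56.8 to 620 ppm in KO. The part of red cells or their RNA in these rises was not tested.

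Tent5c (chr3:100451628-100489324, minus strand) encodes a non-canonical poly(A) polymerase. It ranged from 0 to 82.6 in Ctrl (median 1.27) and from 44.6 to 528 in KO (median 170). One Ctrl library, HSC GFP-negative replicate 2, reached the level of KO libraries of other populations, but within each population the genotypes did not overlap. Tent5c rose by 4.14 ± 0.51 (SE, adjusted p = 0.00134), and its differences over the populations, from 3.80 to 4.41, were close to each other.

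Sva (chr6:42038394-42042851, plus strand), a gene named for an antigen of the seminal vesicle, was close to 0 in all Ctrl libraries. It was listed at 0 to 0.207 in Ctrl and at 7.82 to 46.3 in KO (median 14.2), with no overlap in any library. Sva thus met the filter on low values through KO libraries alone. Sva rose by 2.27 ± 0.35 (SE, adjusted p = 0.013) with differences of 1.82 and 2.30 in GFP-negative and GFP-positive HSC and 2.31 and 2.64 in GFP-negative and GFP-positive LMPP. At these low levels the size depends on the pseudocount: it was 4.23 with 0.1 ppm and 1.0 with 2 ppm, and the latter ended the call.

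**Figure D2:**
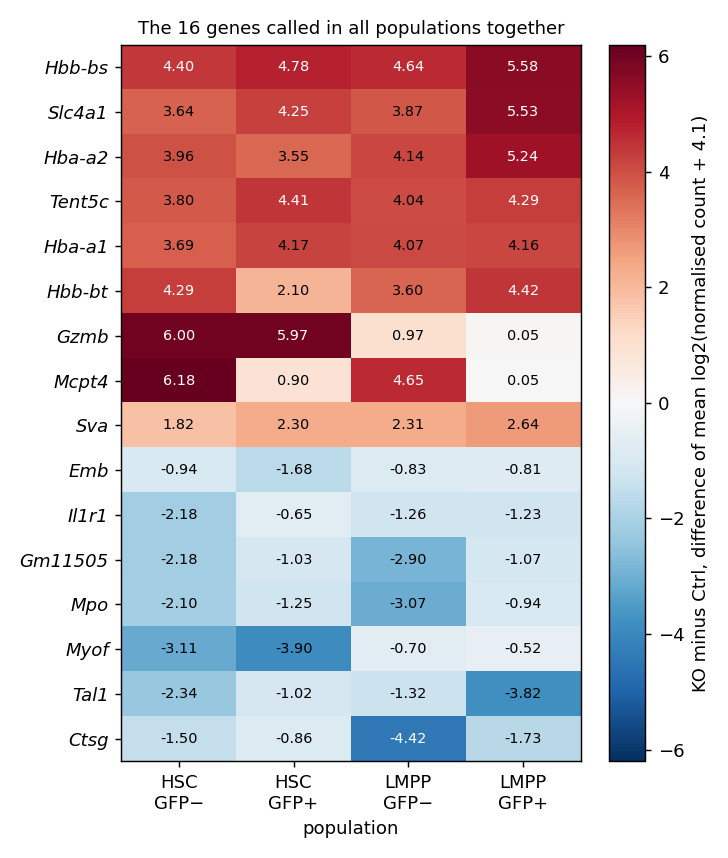
KO minus Ctrl difference of mean log2(normalised count + 4.1) in each population (columns) for the 16 shared genes (rows), with red for higher and blue for lower in KO. Hbb-bs, Slc4a1, Hba-a1, Hba-a2 and Tent5c lie between 3.55 and 5.58 in every column, while Gzmb and Mcpt4 reach 0.05 in LMPP GFP-positive cells.

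The granule proteases Gzmb and Mcpt4 met the definition of a shared rise but were far from equal between populations. Gzmb (chr14:56258838-56262260, minus strand) encodes granzyme B, a serine protease of cytotoxic granules. In HSC GFP-negative cells its Ctrl libraries held 6.31, 2.83 and 9.98 and its KO libraries 839, 1098 and 282. In HSC GFP-positive cells Ctrl held 5.19, 0.0321 and 0.246 and KO 317, 542 and 230. In LMPP cells one KO library, GFP-negative replicate 2, stood at 25.2, and all other LMPP libraries of both genotypes were at 0.491 or less. The differences were 6.0, 5.97, 0.97 and 0.05, and the average over populations was 3.25 ± 0.46 (SE, adjusted p = 0.00526). A test of whether the difference itself varied between populations passed (limma interaction adjusted p = 0.0027). The positive sign in LMPP GFP-positive cells rests on floor values. KO replicate 3 there held 0.491 for Gzmb, and also 0.490 for Cma1, 0.485 for Mcpt4 and 0.484 for Ms4a2. So that sign does not show a rise of Gzmb in this population.

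Mcpt4 (chr14:56059629-56062313, minus strand) encodes a chymase of mast cell granules. Every Ctrl library was at 0.257 or less, so the gene met the filter on low values through KO libraries alone. The KO libraries held 816, 687 and 43.2 in HSC GFP-negative cells and 94.2, 516 and 17.8 in LMPP GFP-negative cells. They held 6.42, 0.708 and 6.02 in HSC GFP-positive cells, and 0.126, 0 and 0.485 in LMPP GFP-positive cells. The values in LMPP GFP-positive cells are floor values, so the positive sign there does not show a rise. So the rise of 2.94 ± 0.46 (SE, adjusted p = 0.013) came mainly from the GFP-negative populations. The interaction had an unadjusted p of 6.3e-05 and an adjusted p of 0.114.

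Cma1, another mast cell chymase, passed both fits (3.17 ± 0.57 (SE), number-mean adjusted p = 0.0468) but was not shared. Its difference in LMPP GFP-positive cells was -0.16, against 6.17, 2.98 and 3.68 in the others. That sign too rests on values near 0, of 1.62 or less. Ms4a2, for the beta chain of the IgE receptor, ranged from 0 to 135 in Ctrl and from 0.126 to 438 in KO, and differed by 2.56 in the gate-block fit only (adjusted p = 0.033, number-mean 0.081). The widely used mast cell gene Cpa3 differed by 2.32 (adjusted p = 0.175). Of 20 measured members of the list of mast cell, basophil and eosinophil genes, 1 rose and none fell, and 6 had a positive difference in all populations (30%, against 7.6% of all genes). In LMPP GFP-positive cells the differences of Mcpt4, Mcpt2, Il6, Ms4a2 and Il1rl1 were only 0.05, 0.03, 0.03, 0.10 and 0.13, and that of Hdc was 0.91. Mcpt4 and Ms4a2 were at 0.485 or less in every library there, so this share does not show a rise in that population. The summed level of 6 mast cell markers (Cpa3, Mcpt4, Cma1, Tpsb2, Fcer1a and Ms4a2) was 22.9 to 53.5 ppm in Ctrl and 276 to 1210 ppm in KO HSC GFP-negative libraries. In LMPP GFP-positive libraries it was 0.74 to 2.80 ppm in Ctrl and 0.268 to 0.405 ppm in KO. The part of mast cells or their precursors in the rises of Gzmb and Mcpt4 was not tested.

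Gzmb was also the one member of 15 measured T and NK lineage genes to rise. The T cell markers measured (Cd3e, Trbc1 and Bcl11b) summed to between 0.198 and 3.82 ppm in KO HSC GFP-negative libraries, where Gzmb was highest. In HSC GFP-positive libraries, where Gzmb differed about as much, they summed to 12.1 to 13.2 ppm in KO and 29.4 to 57.4 ppm in Ctrl. The NK cell marker Klrb1c gave at most 0.00572 ppm in KO HSC GFP-negative and 0.0965 ppm in KO HSC GFP-positive libraries. The part of T or NK cells in the rise of Gzmb was not tested.

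The falls included 2 genes of granulocyte granules. Mpo (chr11:87793581-87804413, plus strand) encodes myeloperoxidase and was among the most abundant transcripts, at 3910 to 106766 in Ctrl (median 10086) and 531 to 48494 in KO (median 3927). Its wide range came from the populations, with HSC GFP-positive cells highest in both genotypes. Within populations the genotypes were apart in 3 and overlapped in LMPP GFP-positive cells. Mpo fell by 1.84 ± 0.17 (SE, adjusted p = 0.000153), with -2.10 and -1.25 in GFP-negative and GFP-positive HSC and -3.07 and -0.94 in GFP-negative and GFP-positive LMPP. The last of these leans on the low-detection KO replicate 3, at 1583 against 5590 and 6633 in the other KO libraries there. Without the 2 libraries of low detection the difference over all populations was -1.87.

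Gm11505 (chr11:87795784-87801144, minus strand) is annotated antisense and lies wholly within Mpo. It fell by 1.79 ± 0.19 (SE, adjusted p = 0.0004), and its value was between 0.366 and 0.539 of that of Mpo in each of the 24 libraries, with a median of 0.456 in Ctrl and in KO. The sources used here do not say whether the authors counted by strand, so reads of the 2 genes cannot be told apart.

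Ctsg (chr14:56099881-56102574, minus strand) encodes the neutrophil protease cathepsin G. It ranged from 68.2 to 4489 in Ctrl (median 289) and from 0.248 to 2109 in KO (median 127), with the genotypes apart in 2 populations. It fell by 2.13 ± 0.38 (SE, adjusted p = 0.0468), most in LMPP GFP-negative cells (-4.42). This call was among the least stable: it was kept in 7 of 21 alternative settings, and leaving out any one number ended it, with number-mean adjusted p from 0.00867 to 0.305.

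Of 26 measured granulocyte and monocyte genes, 2 fell and none rose, and 11 had a negative difference in all populations (42.3%, against 6.3% of all genes). The list's median difference was -0.70. Not all members leaned this way: 8 of the 26 had a positive mean difference, among them the granule genes Camp (0.71), Ngp (0.65) and Ltf (0.16), and S100a8 (0.16) and S100a9 (0.18). Elane, for neutrophil elastase, differed by -0.65 (adjusted p = 0.959) and by 1.59 in LMPP GFP-negative cells. Csf3r, the receptor of granulocyte colony-stimulating factor, passed the gate-block fit only (-0.82, adjusted p = 0.0312, number-mean 0.117). Members with one sign that passed neither fit included Prtn3 (-1.43), Csf1r (-1.25), Irf8 (-1.01) and Cebpa (-0.86), a granule protease, the macrophage growth factor receptor and 2 transcription factors of the myeloid lineage. The 3 neutrophil markers Elane, Mpo and S100a8 summed to 516 to 12410 ppm in Ctrl and 102 to 7137 ppm in KO.

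Cma1, Mcpt4, Ctsg and Gzmb lie within 321 kb of each other on chromosome 14, in a cluster of serine protease genes. Of the 8 genes of that stretch in the deposited table, 7 were kept. Mcpt4 and Gzmb rose, Ctsg between them fell, and Mcpt1, Mcpt2 and Mcpt8 differed by 0.56, 0.94 and 0.01 with adjusted p of 0.554 or more. Neighbours in the cluster thus moved in opposite directions.

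The remaining falls were genes of the cell surface and membrane. Il1r1, the interleukin 1 receptor gene, ranged from 296 to 1399 in Ctrl (median 1015) and from 38.1 to 1009 in KO (median 383), and fell by 1.33 ± 0.21 (SE, adjusted p = 0.013). Emb, for the surface glycoprotein embigin, ranged from 703 to 6499 in Ctrl (median 2337) and from 275 to 2856 in KO (median 1314), and fell by 1.06 ± 0.18 (SE, adjusted p = 0.0309). For both, the genotypes were apart in 3 of the 4 populations, with the overlap in HSC GFP-positive cells for Il1r1 and in HSC GFP-negative cells for Emb. In LMPP GFP-positive cells Il1r1 stood at 183 in the low-detection KO replicate 3, against 798 and 1009 in the other KO libraries. Without the 2 libraries of low detection Il1r1 differed by -1.18 and Emb by -0.89. Myof, for the membrane repair protein myoferlin, fell by 2.06 ± 0.31 (SE, adjusted p = 0.011), but unevenly. Its means were 131 ± 46.3 (SD, n = 3) in Ctrl and 14.5 ± 14.4 in KO HSC GFP-negative cells, and 412 ± 84.1 and 320.0 ± 179 in LMPP GFP-positive cells. Its differences were -3.11 and -3.90 in the HSC gates and -0.70 and -0.52 in the LMPP gates, with an adjusted p of 0.437 for the limma interaction.

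**Figure D3:**
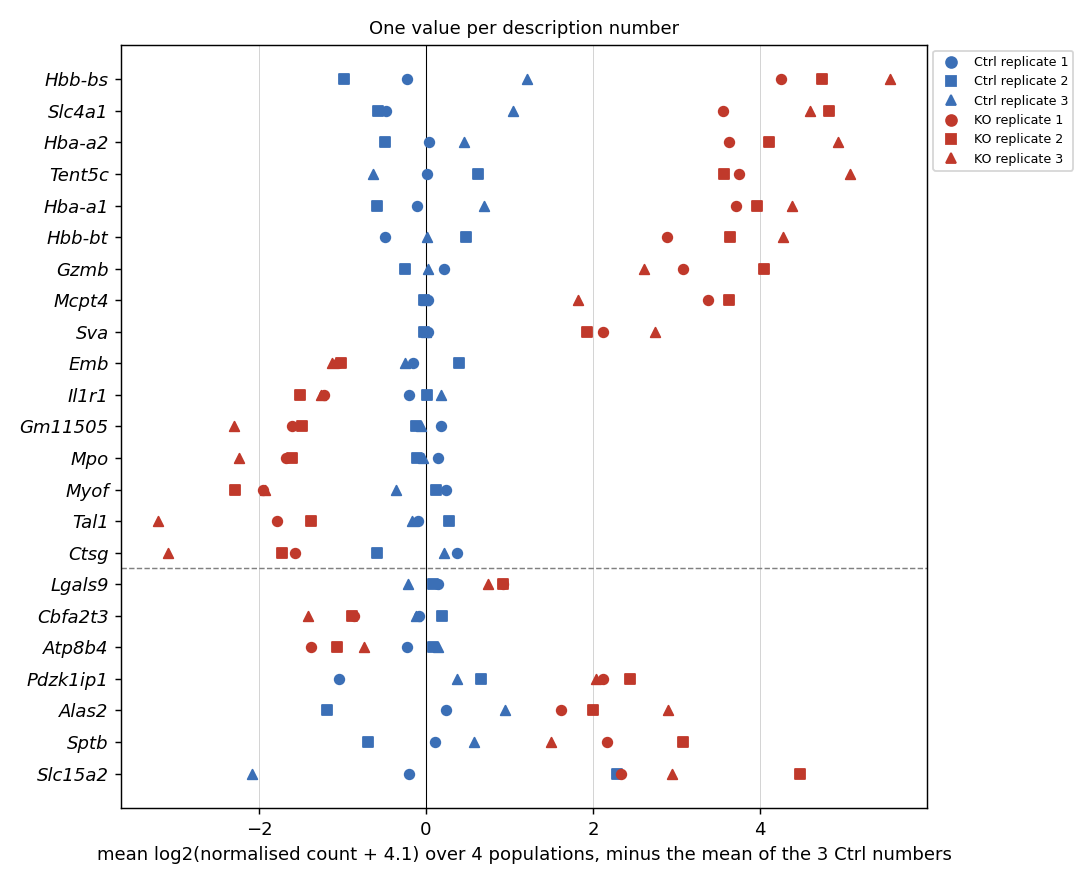
One value for each of the 6 description numbers, the mean log2(normalised count + 4.1) over 4 populations minus the mean of the 3 Ctrl numbers, for the 16 shared genes (above the dashed line) and 7 genes that passed the gate-block fit only (below it). For Hbb-bs the KO numbers are all well to the right of the Ctrl numbers, while for Slc15a2 the highest Ctrl number almost meets the lowest KO number.

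The 41 genes that passed the gate-block fit but not the number-mean fit show what the spread between numbers takes away. In all 41, the 3 KO numbers still lay on one side of the 3 Ctrl numbers, as they did for 10.8% of all genes, or 4.93% with one sign in all 4 populations besides. The 41 were chosen by their difference in the same libraries, so this separation was largely built in and is not further support. The 10.8% is close to the 0.1 that 3 against 3 gives with no effect. Slc15a2, a peptide transporter gene, had nearly equal differences in the 4 populations (3.14, 3.43, 2.98 and 3.48). Its mean log2 levels were 3.93, 6.42 and 2.06 in the Ctrl numbers and 6.47, 8.62 and 7.09 in the KO numbers, so the libraries of a number were high or low together. Its adjusted p was 0.00864 in the gate-block fit and 0.251 in the number-mean fit. Lgals9, for galectin 9, ranged from 959 to 2385 in Ctrl and from 1479 to 5293 in KO, and its difference of 0.87 passed the gate-block fit only (adjusted p = 0.000961, number-mean 0.0538). Atp8b4, for a phospholipid flippase, differed by -1.06 (0.0279 and 0.0613), with -2.18 in LMPP GFP-negative and -0.17 in LMPP GFP-positive cells.

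Pdzk1ip1, a membrane protein gene, starts 16952 bases beyond the end of Tal1 on the same strand. It ranged from 0.177 to 321 in Ctrl (median 34.5) and from 51.9 to 513 in KO (median 198), and was thus higher in KO while Tal1 was lower. Its difference was 2.20 ± 0.44 (SE), with 1.38, 2.24, 2.28 and 2.91 over the populations, and it passed the gate-block fit only (adjusted p = 0.0276, number-mean 0.0866). Without the 2 libraries of low detection it passed both (2.49, number-mean adjusted p = 0.0055, with 0.0055 to 0.44 over the alternatives).

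A stricter reading asks that every KO library lie on one side of every Ctrl library in each population. This held for 14 genes (0.0863%), 8 higher (0.0493%) and 6 lower (0.037%) in KO, where single populations gave 12.7 and 14.3% of genes (GFP-negative and GFP-positive HSC) and 10.8 and 9.55% (GFP-negative and GFP-positive LMPP). Of the 14, 7 were called shared: Hbb-bs, Hba-a1, Hba-a2, Slc4a1, Tent5c, Sva and Tal1. Among the others were Cbfa2t3, Rnf150 (-1.42), the interleukin 17 receptor gene Il17rc (-1.85), the kinase gene Map3k1 (-0.76) and Ttc39b (1.09). The number-mean fit gave these 4 adjusted p of 0.117, 0.196, 0.22 and 0.385. The other 2 are a predicted gene and a clone name and are not named.

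The study's title concerns lymphoid specification, and the lymphoid genes were read in the same way. None of 19 measured members of the lymphoid priming list, and none of 11 of the B lineage list, passed either limma fit, and the priming list's median difference was -0.19. At an unadjusted p under 0.05 in the number-mean fit, which 913 of all 16215 genes reached, the priming list had 6 members and the B lineage list 1. Among the 6 were Rag1, with a positive mean difference, and Dntt, Notch1, Ccr7 and Bcl11a, with negative ones. Bcl11a was negative in all 4 populations, while Dntt, Notch1 and Ccr7 changed sign between them. The chemokine receptor gene Ccr7 averaged -1.54, with -0.71 and -4.97 in GFP-negative and GFP-positive HSC and 0.70 and -1.17 in GFP-negative and GFP-positive LMPP. Rag1, a subunit of the antigen receptor recombinase, had a positive difference in all 4 populations (1.23 ± 0.42 (SE)) with an adjusted p of 0.666. Rag2, whose reporter defined the gates, differed by 0.32 ± 0.30 (adjusted p = 0.97), and its sign changed between populations. The DNA polymerase gene Dntt, the interleukin 7 receptor gene Il7r and Flt3 differed by -0.67, 0.29 and -0.47, with adjusted p of 0.844, 0.987 and 0.914. A p that misses the threshold does not show that these genes were equal.

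**Figure D4:**
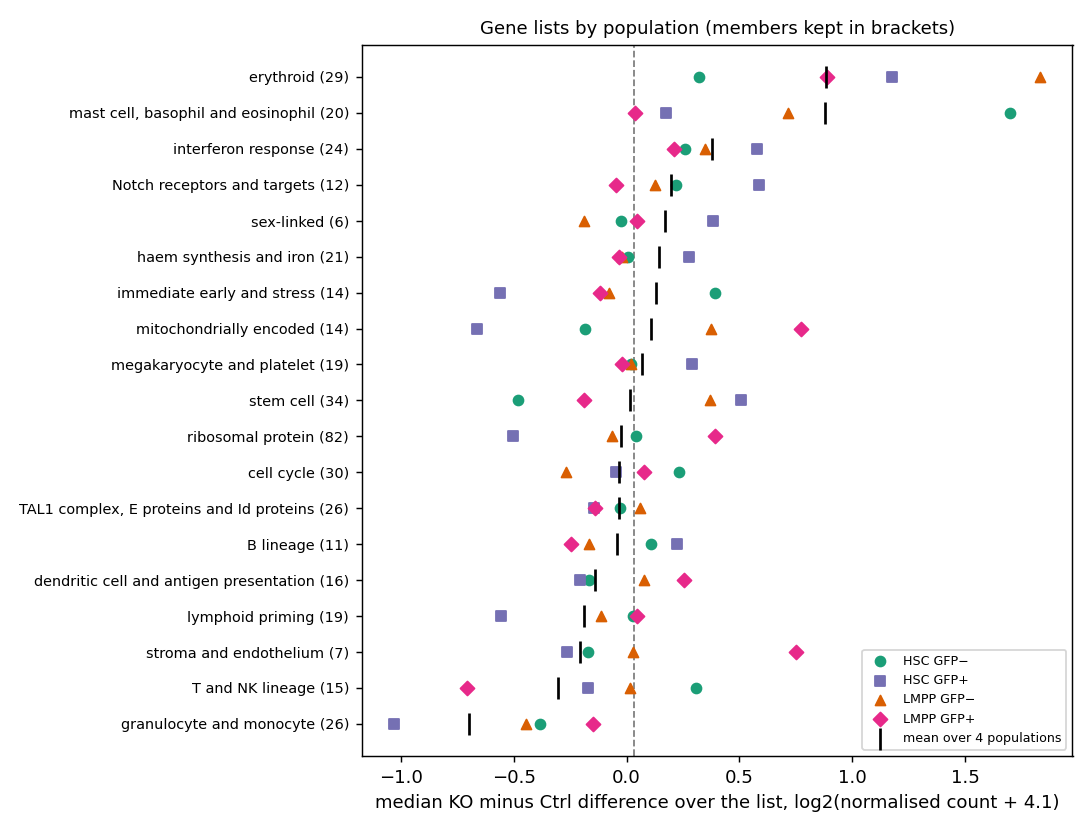
Median KO minus Ctrl difference over the measured members of each gene list, on the log2(normalised count + 4.1) scale, in each population (symbols) and for the mean over populations (black bar), with the median of all genes as a dashed line. The erythroid list lies right of the dashed line, and the granulocyte and monocyte list left of it, in every population. The line is drawn for the mean over populations. In LMPP GFP-positive cells alone the median was -0.098 for all genes and -0.147 for the granulocyte and monocyte list.

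Among the other lists, those for megakaryocytes and platelets, dendritic cells, Notch, cell cycle, immediate early and stress genes, stroma, mitochondrially encoded genes, ribosomal proteins and sex-linked genes had no member passing either fit. None of 34 stem cell genes was called shared. There Pdzk1ip1 was higher and Ifitm1 lower (-1.18, adjusted p = 0.014) in the gate-block fit. The interferon response list had a positive difference in all 4 populations for 7 of 24 members (29.2%, against 7.6% of all genes), among them Ifit1 (1.16), Isg15 (1.12) and Mx1 (0.88), and a median of 0.38. None of its members passed either limma fit, and 2 had an unadjusted p under 0.05 in the number-mean fit, as 913 of all 16215 genes did. The Notch list had a positive difference in all populations for 4 of 12 members (33.3%, against 7.6% of all genes), with Hes1 at 1.11 (adjusted p = 0.532), of which HSC GFP-negative cells gave 3.43.

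**Figure D5:**
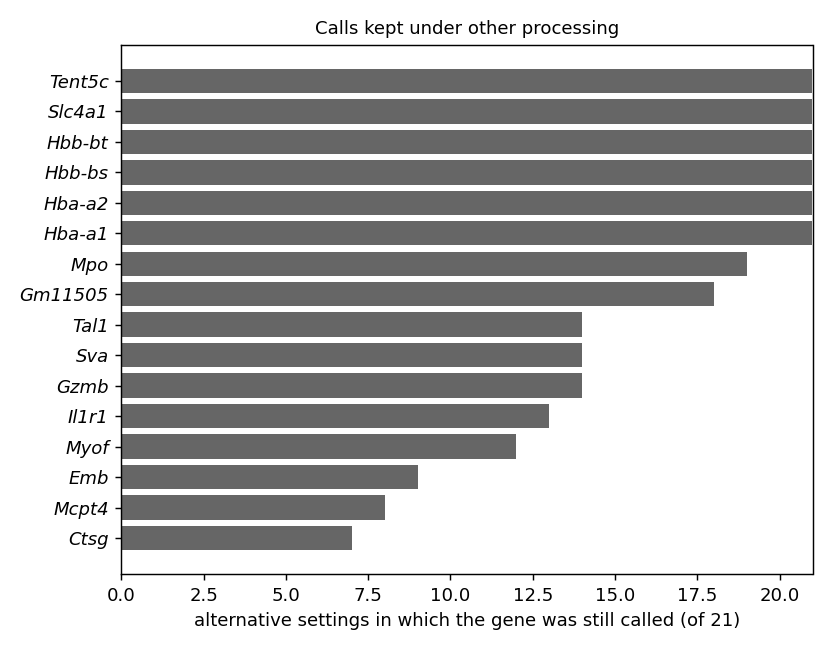
Number of 21 alternative settings (horizontal axis) in which each of the 16 shared genes (vertical axis) was still called. The 4 globin genes, Slc4a1 and Tent5c have bars of full length at 21, and Ctsg has the shortest at 7.

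The calls differed in how often they held under other settings. The 4 globin genes, Slc4a1 and Tent5c were called in all 21 alternatives run. Mpo was called in 19 and Gm11505 in 18. Gzmb, Sva and Tal1 were called in 14, Il1r1 in 13, Myof in 12, Emb in 9, Mcpt4 in 8 and Ctsg in 7. Leaving out 1 number kept 8 to 14 of the 16 calls. All 16 were kept without the 2 libraries of low detection, where 33 genes in all were called. Equal differences between populations were not needed for a call: 7 of the 16 had an unadjusted interaction p under 0.05, and 1 of them, Gzmb, passed adjustment, as 0.0308% of all genes did.

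The promoters were searched for 2 short sequences, with each match counted on either strand in the 250 bases before a start site. CAGATG is the E-box form that TAL1 with an E protein prefers, and AGATAA is a GATA factor sequence. RefSeq gave a window for 14 of the 16 shared genes. CAGATG was found in 3 of them (Gzmb, Il1r1 and Sva), against 14.4% of 32851 windows of all genes, and AGATAA in 2 (Hbb-bs and Tal1), against 9.99%. No window held both, which 1.63% of all windows did, and 9 held neither. Only these exact letters were searched, so variants such as the TGATAA of both alpha globin windows were not counted. A match is a description of letters, not of binding. The windows of Tal1 (chr4:115056176-115056425, plus strand), Gzmb (chr14:56262335-56262584, minus strand) and Sva (chr6:42038144-42038393, plus strand) are printed 5′ to 3′ as the targeted gene and as the rises that hold the E-box letters, with matches to either sequence or its reverse complement in capitals. Sva held 3 matches, and Gzmb 1.
Tal1: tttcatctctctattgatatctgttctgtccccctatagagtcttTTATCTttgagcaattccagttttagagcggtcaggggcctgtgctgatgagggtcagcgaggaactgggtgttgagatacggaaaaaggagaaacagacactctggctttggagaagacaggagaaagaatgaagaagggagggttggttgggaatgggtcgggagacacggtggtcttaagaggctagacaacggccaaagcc
Gzmb: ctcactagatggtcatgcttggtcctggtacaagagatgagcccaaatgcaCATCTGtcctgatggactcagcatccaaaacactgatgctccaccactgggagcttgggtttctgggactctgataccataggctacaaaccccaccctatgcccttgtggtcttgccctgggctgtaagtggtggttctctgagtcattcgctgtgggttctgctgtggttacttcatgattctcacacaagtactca
Sva: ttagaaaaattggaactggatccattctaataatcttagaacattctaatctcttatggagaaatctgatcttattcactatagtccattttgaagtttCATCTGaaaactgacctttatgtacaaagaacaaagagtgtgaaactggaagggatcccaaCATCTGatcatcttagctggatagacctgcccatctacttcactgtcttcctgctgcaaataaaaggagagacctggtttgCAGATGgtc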

How the data were processed

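Per the labels, total RNA of sorted bone marrow LSK cells was made into low-input libraries and sequenced for 76 cycles. Per the submitters' processing notes, Trimmomatic 0.33, HTSeq 0.6.1 and edgeR (no version) were used, on mm10. The deposited table holds a signal for each gene, counts normalised by the authors; the normalisation function and the aligner are not given in the sources used here. Whole reads could not be recovered, so no count model was used.

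Genes with at least 1 ppm (of the library total) in at least 3 libraries were kept, 16215 of 17149. Tests used log2(value + 4.1), where 4.1 is 0.5 ppm of the mean total, without rescaling. The gate-block and number-mean fits and the genotype by population interaction used limma 3.58.1 in R 4.3.3 (empirical Bayes, intensity trend, Benjamini-Hochberg over all genes kept). The gate-block fit had 19 residual and 9.71 prior degrees of freedom, the number-mean fit 4 and 11.5. SEs are from the number-mean fit, after its empirical Bayes step. The rule for named genes took shared genes with at least 5 ppm (up to 12 rises and 12 falls), fixed genes of the TAL1 complex and lymphoid priming, shared list members and the 5 smallest interaction p-values, and left predicted and clone names unnamed. Some genes the rules took are not reported here, although counts include them. The members and lists were chosen with earlier results of these data known. On simulated data, 81% of 4-fold and 100% of 16-fold changes were called shared, with 3 of 16015 unchanged genes. The simulation used normal noise, a correlation of 0.025 within numbers for every gene and the same change in all populations. It does not cover genes with a larger spread between numbers or with uneven changes. Gene coordinates are from GENCODE M21, and 171 identifiers had no symbol. The alternatives were 2 pseudocounts, 2 filters, 2 scalings, library weights, a correlated block, a replicate block, no trend, and leaving out libraries, numbers or populations.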

Additional observations from a re-analysis of the deposited data

Results flagged for a closer look

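In 5 genes (0.0308% of 16215) the KO minus Ctrl difference itself varied between the 4 populations by limma's interaction test, with libraries of one number treated as correlated, and 1148 genes had an unadjusted p under 0.05. The 4 differences of a gene are given for the HSC gates and then the LMPP gates, each with GFP-negative before GFP-positive cells.

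Bcl11b, a transcription factor of the T cell lineage, had the smallest adjusted p (0.000504), with 0.04, -4.49, 0.02 and 0.04. It was near 0 in both genotypes outside HSC GFP-positive cells. Bcl11b met the filter of 1 ppm in 3 libraries only through the Ctrl libraries of that population, at 79.3, 186 and 136. So the group that let it into the test is also the one that sets its interaction. St8sia6, a sialyltransferase gene, changed sign, with 2.60, 5.29, -0.01 and -2.08 (adjusted p = 0.00203). Gzmb, the granzyme B gene, was the one of the 5 that was also called shared, with 6.0, 5.97, 0.97 and 0.05 (adjusted p = 0.0027). Cdh1, for the adhesion protein E-cadherin, differed by 1.09, 4.68, 0.04 and -0.03 (adjusted p = 0.00679). No gene of these 5 other than Gzmb passed the gate-block or the number-mean fit.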

How the results depend on the processing

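No named gene reversed direction in an alternative where it was called shared in that alternative or in the main setting. Changes of sign in genes called in neither were not counted as reversals. Of 931 gene values, 803 kept their side of the threshold, 80 lost it and 48 gained it. Leaving out each number gave 16 to 66 genes passing the gate-block fit (58 with all libraries), 9 to 33 the number-mean fit (18), 6 to 16 shared rises (9), 2 to 6 shared falls (7), 0 to 15 interactions (5) and 24 to 45 genes apart in all populations (14). The cause of the changes below was not tested, save that fewer libraries make separation easier.

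Without the 2 libraries of low detection the gate-block fit passed 117, the number-mean fit 35, shared calls were 16 up and 17 down and 23 genes were apart. Quantile normalisation gave 91, 40, 16 and 20, and equal medians 28 in the number-mean fit, 15 rises and 3 interactions. Array weights gave 186 in the gate-block fit. A correlated block in place of both fits passed 37, with 20 rises and 16 falls. A pseudocount of 0.1 ppm gave 4 falls and 3 interactions, and a filter of 12 libraries 0 interactions. Without the intensity trend the number-mean fit passed 8 and no gene fell (0 falls).

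Without HSC GFP-negative cells the gate-block fit passed 10, the number-mean fit 7, 1 gene fell and 31 were apart. Without LMPP GFP-negative cells these were 12, 10, 0 and 27, with 3 interactions. Without HSC GFP-positive cells the gate-block fit passed 24, with 0 interactions and 31 apart, and without LMPP GFP-positive cells the number-mean fit passed 28, with 14 rises, 12 falls, 3 interactions and 38 apart.

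The main fits did not pair Ctrl and KO samples by the replicate numbers of the titles. In the means over populations, same-numbered Ctrl and KO deviations correlated at 0.18, -0.01 and 0.13 for replicates 1, 2 and 3. The highest correlation of each KO replicate with a Ctrl replicate of another number was -0.04, 0.07 and 0.04. Replicates 1 and 3 were thus closer to their same-numbered partner and replicate 2 was not, and a batch shared by replicate was not tested. With the replicate block the number-mean fit passed 32 genes, with 15 rises and 13 falls, and all 16 shared genes kept their calls. The share of higher calls in the gate-block fit was 55.2%, and 66% without the trend, 80 and 83.3% without HSC and LMPP GFP-negative cells, and 66.7% without KO replicate 3.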
